A study of Homo sapiens with 6 samples.

Results

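The genes described here build and run the protein synthesis machinery of mitochondria without being structural parts of the mitochondrial ribosome (mitoribosome). They were chosen by function from a fixed list of 43 symbols, and all 43 were found among the 19330 genes of the footprint table. By role they comprised 16 genes of mitochondrial tRNA (mt-tRNA) modification and end maturation, 6 of mitochondrial rRNA (mt-rRNA) methylation, 4 of aminoacyl-tRNA formylation and amidation, 10 of mitoribosome assembly and anchoring, and 7 mt-translation factors. Some are listed under older symbols: FTSJ2 is MRM2, RNMTL1 is MRM3 and QTRTD1 is QTRT2.

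The samples were ribosome profiles (Ribo-Seq) of K562, an established human leukemia cell line. Ribo-Seq counts the mRNA fragments protected by ribosomes, called footprints. Cells carried the lentiviral vector pLentiCRISPRv2 with Cas9 and a guide against N6AMT1 (sgN6AMT1, 3 libraries) or against olfactory receptor genes as the control (sgCtrl, 3 libraries). Both groups were selected with puromycin for 48 h and harvested 10 days after infection, so each is a transduced population and not a clone. Which control guide each sgCtrl library carried is not given in the labels. The libraries held between 1821356 and 2969736 counts, and none stood apart from its group. The study describes its replicates as independent lentiviral transductions, so p-values measure the spread between transduced populations of a single cell line. The targeted gene fell: N6AMT1 went from 25, 24 and 34 counts in the control libraries to 10, 9 and 8 counts, which edgeR put at a log2 fold change of -1.51 with SE 0.31 and an adjusted p of 6.69e-05. All 7 K562 marker genes were present, at 199 counts or more in every library, and the 6 markers of other cell types reached at most 23 counts, with 2 of them at 0 throughout. Of the K562 markers 3 were lower and 1 was higher in sgN6AMT1, and the part of this in the results below was not tested.

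Human mitochondria translate a small set of mtDNA-encoded subunits of the oxidative phosphorylation system with their own ribosomes, tRNAs and factors. The rRNAs and tRNAs come from mtDNA. The proteins that modify, assemble or drive this machinery are encoded in the nucleus, translated by cytosolic ribosomes and, to act inside mitochondria, imported. The footprints on the genes below therefore report cytosolic translation of these genes, and they also vary with the amount of each mRNA. Some enzymes of the list, such as QTRT1, also modify cytosolic tRNAs, and footprints do not tell these uses apart. These are bulk samples, in which a smaller number of cells making a protein and less mRNA per cell cannot be told apart.

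N6AMT1 acts with TRMT112 as a methyltransferase of eRF1, the factor that reads stop codons when cytosolic ribosomes terminate. For this reason the ends of the coding sequences (CDS) are shown for 6 genes that were lower in sgN6AMT1 and for QTRTD1 and RNMTL1, which were not and which serve as their partner or relative below. Each line gives the last 18 coding bases in lower case, with the stop codon and the base after it in capitals, 5′ to 3′ on the strand of the gene. The sequences are those of the listed transcripts in GENCODE release 44 on GRCh38. MRM1 lies on the plus strand (chr17:36608395-36608416), as do QTRT1 (chr19:10713250-10713271), GFM1 (chr3:158691447-158691468), QTRTD1 (chr3:114085884-114085905) and RNMTL1 (chr17:792049-792070). FTSJ2 (chr7:2235121-2235142), TRMT5 (chr14:60975108-60975129) and MTIF2 (chr2:55236647-55236668) lie on the minus strand.
MRM1: gagaggcaaaatgagggcTGAC
QTRT1: gtgggaatcacactgggcTGAC
GFM1: aaaggaaaagccaagaacTAAC
FTSJ2: aagggcactgtgaagcagTGAG
TRMT5: caaattgtttcaaacactTAAT
MTIF2: tcttgggatccaggatttTAAA
QTRTD1: atccacaggcaagcatctTGAG
RNMTL1: agggacaggagttaccacTGAG
All 3 stop codons occurred among the 7 lower genes, with TGA in 3, TAA in 3 and TAG in 1 (MTERF3, whose window is not printed). Among the 40 tested genes of the list with an annotated stop codon, TGA was used by 55.0%, TAA by 27.5% and TAG by 17.5%. The shares over all 8593 tested genes with a stop codon were 49.1%, 29.7% and 21.2%. The median log2 fold change of all tested genes was 0.01 for TGA, -0.01 for TAA and 0.03 for TAG. The share of them lower in sgN6AMT1 was 12.5% for TGA, 16.3% for TAA and 13.4% for TAG. The share higher was 12.3%, 13.1% and 14.1%, and no difference by stop codon was tested. Within the list the medians were -0.07 for TGA, -0.10 for TAA and -0.09 for TAG, with 3 of 22, 3 of 11 and 1 of 7 genes lower. A C after the stop codon was found in 3 of the 7 lower genes (MRM1, QTRT1 and GFM1), in 12 of 39 tested genes of the list (30.8%) and in 21.5% of all tested genes with that base annotated, which is a description with no test.

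Of the 43 genes, 42 passed the filter on low counts. The exception was NSUN4, an rRNA cytosine methyltransferase that also takes part in mitoribosome assembly, which had 0 counts in all 6 libraries on its listed transcript (ENST00000498008.5). A count of 0 allows up to 3 counts, or between 1.01 and 1.65 CPM (counts relative to the total of the library) in these samples. Of the 42 genes tested, 7 were lower in sgN6AMT1 (MRM1, GFM1, QTRT1, FTSJ2, TRMT5, MTERF3 and MTIF2), none was higher and 35 did not pass (edgeR's quasi-likelihood test, Benjamini-Hochberg adjusted p under 0.05 over all 9202 genes tested). The share called was 16.7%, against 26.9% of all tested genes. The share lower was 16.7% against 13.9% of all tested genes, which is near the background. The share higher was 0 of 42, against 12.9% of all tested genes. DESeq2 and limma-voom also called 0 higher, against 5.43% and 12.9% of the genes to which each gave an adjusted p. At an unadjusted edgeR p under 0.05 there were 9 lower and 4 higher genes, against 18.5% and 18.3% of all tested genes. With total counts in place of trimmed-mean (TMM) factors, 5 genes were lower and 2 higher (TRMU and QRSL1), against 10.6% and 17.0% of all tested genes, whose median moved from 0.01 to 0.06 on the log2 scale. Single calls also came with the loss of a library: MTIF3 was called higher without sgCtrl replicate 2, TRMU and MALSU1 without sgCtrl replicate 3, TRMU without sgN6AMT1 replicate 1 and MALSU1 without sgN6AMT1 replicate 3.

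Changes were small. Log2 fold changes (sgN6AMT1 over sgCtrl) ran from -0.97 to 0.62, none reached 1 in size, and the median was -0.09 against 0.01 over all tested genes. The sign was negative for 26 of 42 genes (61.9%), compared with 49.0% of all tested genes. Groups were fully separated in 9 genes toward lower values (background 19.2%) and in 4 toward higher values (background 18.4%). The list as a whole took 0.272%, 0.273% and 0.277% of the sgCtrl counts against 0.267%, 0.271% and 0.272% of the sgN6AMT1 counts, so the groups overlapped narrowly.

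**Figure D1:**
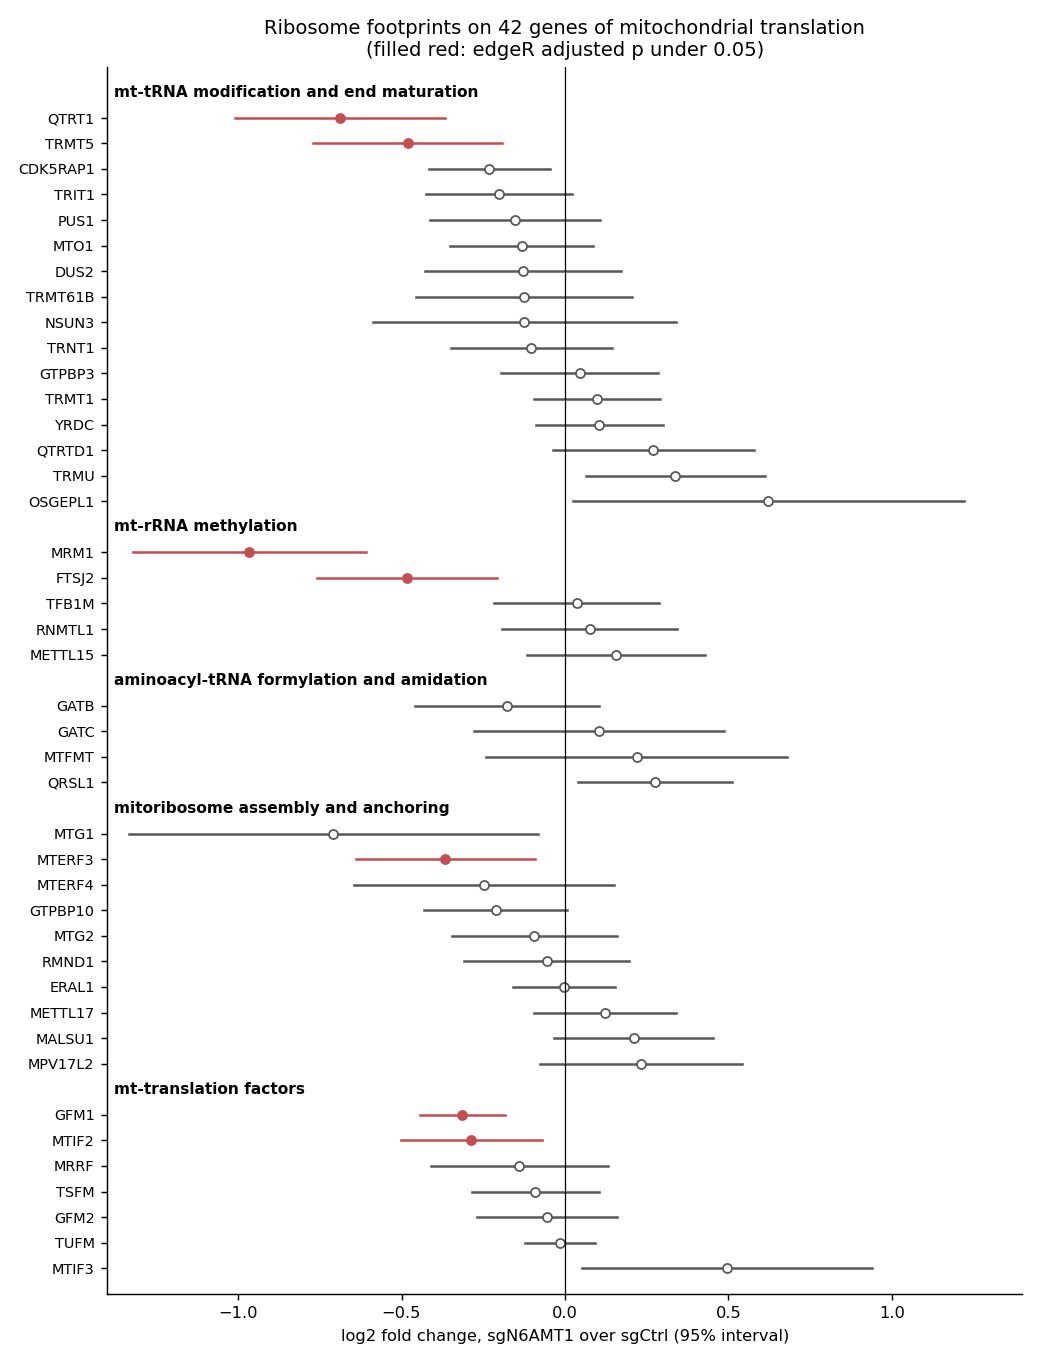
Log2 fold change of footprints, sgN6AMT1 over sgCtrl, for the 42 tested genes by role, with 95% intervals from the edgeR fit. Filled red points passed an adjusted p of 0.05: 7 genes, all below 0, in every role but formylation and amidation.

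Levels differed far more between genes than between groups. Per kb of CDS, the elongation factor gene TUFM was the highest of the 40 tested genes with an annotated CDS, at 456 ± 14.7 CPM per kb (SD, n = 3) in sgCtrl and 452 in sgN6AMT1. It supplied between 21.5% and 22.8% of all counts on the list in the sgCtrl libraries. ERAL1 at 118 ± 3.90, GFM1 at 108 ± 1.75 and YRDC at 104 ± 6.56 CPM per kb (SD, n = 3, sgCtrl) came next, and YRDC did not differ from GFM1 beyond its spread. Below them TSFM (89.0 ± 2.62 CPM per kb) and MALSU1 (87.6 ± 19.0 CPM per kb) were indistinguishable. At the low end stood OSGEPL1 at 4.82 ± 1.48, MTG1 at 8.65 ± 1.81, MTFMT at 10.0 ± 1.04 and NSUN3 at 12.8 ± 2.38 CPM per kb (SD, n = 3, sgCtrl).

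**Figure D2:**
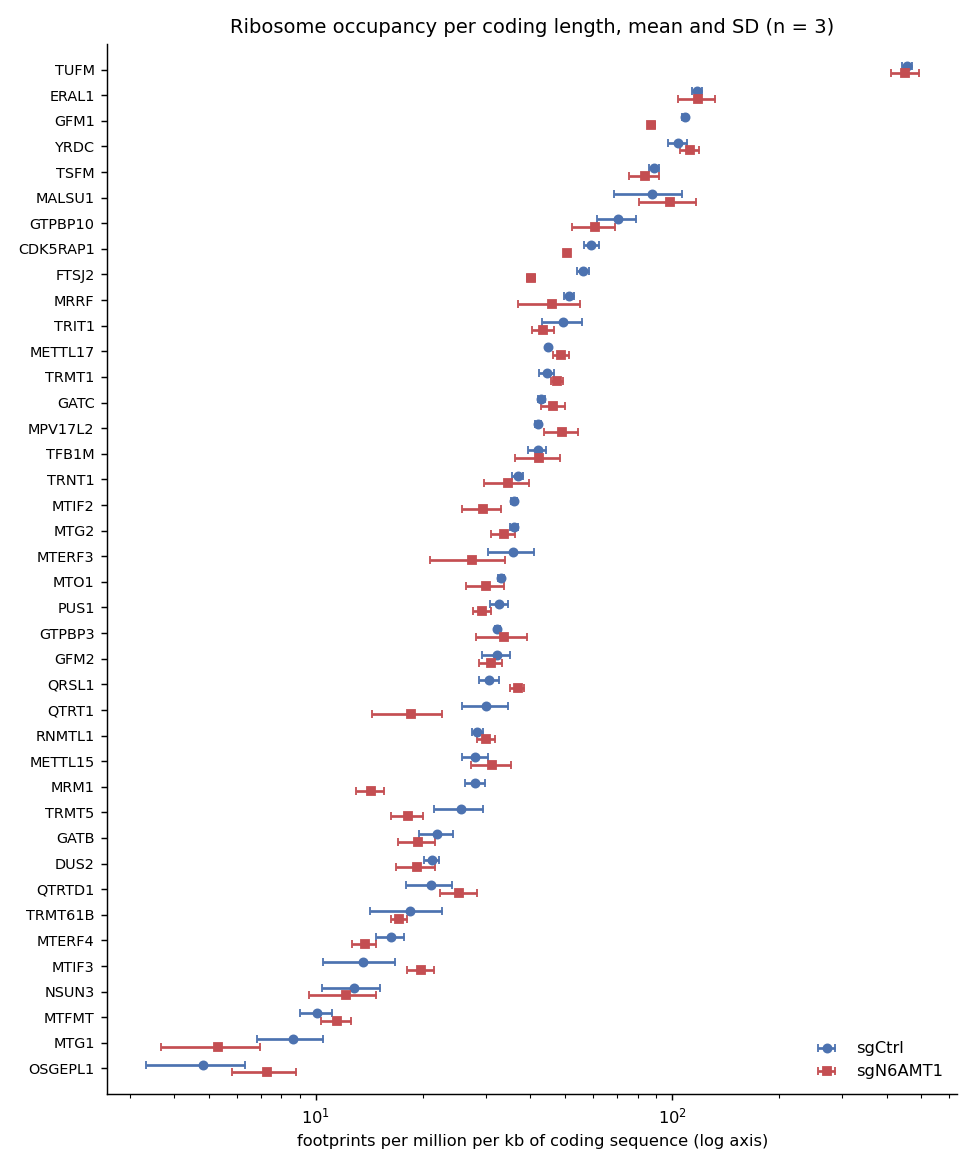
CPM per kb of CDS on a log axis, mean and SD of 3 libraries, for 40 genes ordered by their sgCtrl level. TUFM lies at 456 and OSGEPL1 at 4.82 CPM per kb in sgCtrl, and most pairs of points lie close together.

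In mt-tRNA modification, 2 of 16 genes were lower and none was higher (12.5% and 0, against 13.9% and 12.9% of all tested genes). The median log2 fold change was -0.12. QTRT1, the catalytic subunit of the transglycosylase that places queuosine in the anticodon of certain tRNAs, had 40.2, 30.3 and 39.0 CPM in sgCtrl and 16.7, 25.1 and 25.5 CPM in sgN6AMT1. Every sgN6AMT1 library was below every sgCtrl library, with replicate 1 the lowest of all. The log2 fold change was -0.69 (SE 0.16, edgeR adjusted p 0.000458). TRMT5, which methylates the guanosine next to the anticodon and so guards the reading frame, had 44.7, 39.7 and 32.5 CPM in sgCtrl and 30.7, 27.7 and 25.0 CPM in sgN6AMT1. The groups did not overlap, but the lowest sgCtrl and the highest sgN6AMT1 library were close. Its log2 fold change was -0.48 (SE 0.15, edgeR adjusted p 0.00785). This call was lost in DESeq2 (adjusted p 0.117) and without sgCtrl replicate 1 (edgeR adjusted p 0.0632), in a range of 0.00271 to 0.117 over 15 alternatives.

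The other 14 modification genes did not pass the test, with log2 fold changes between -0.23 and 0.62. CDK5RAP1, which adds the methylthio group to an isopentenylated adenosine, had 102, 109 and 111 CPM in sgCtrl and 90.7, 91.6 and 92.3 CPM in sgN6AMT1. Its groups did not overlap, and it lay just outside the threshold (log2 fold change -0.23, SE 0.093, edgeR adjusted p 0.0531). It passed in 2 of 15 alternatives, with trends on coding length and GC removed (edgeR adjusted p 0.0189) and without sgCtrl replicate 1 (edgeR adjusted p 0.0443), in a range up to 0.22. TRIT1, which makes the isopentenyl modification that CDK5RAP1 extends, had a log2 fold change of -0.20. The pseudouridine synthase PUS1 had 44.7, 40.7 and 40.4 CPM in sgCtrl and 35.5, 39.8 and 37.5 CPM in sgN6AMT1, again without overlap and with a log2 fold change of -0.15 (edgeR adjusted p 0.422).

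Genes for uridine modification at the wobble position differed in sign. TRMU, which thiolates this uridine, was at a log2 fold change of 0.34 with SE 0.14 (adjusted p 0.0584 by edgeR). Its level in 1 sgN6AMT1 library, replicate 3, was well above the rest at 54.8 CPM. Without that library the log2 fold change was 0.16 (edgeR adjusted p 0.472), and adjusted p ran from 0.0211 to 0.472 over 15 alternatives. MTO1 and GTPBP3, which together make the taurine modification of the same base, had log2 fold changes of -0.13 and 0.04. OSGEPL1 and YRDC, which make the threonylcarbamoyl adenosine next to the anticodon, had log2 fold changes of 0.62 and 0.11. The value of OSGEPL1 was the highest of the list and also one of the least certain (SE 0.30, edgeR adjusted p 0.12), from 100 counts in all. The methyltransferase genes TRMT1, TRMT61B and NSUN3 had log2 fold changes of 0.10, -0.12 and -0.12, the CCA-adding enzyme gene TRNT1 -0.10 and the dihydrouridine synthase gene DUS2 -0.13.

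Of the 5 tested genes of mt-rRNA methylation, 2 were lower and none was higher, against 13.9% and 12.9% of all tested genes. Such a share rests on few genes. The median log2 fold change was 0.04, and only the 2 lower genes, MRM1 and FTSJ2, had negative values. MRM1 and MRM2 (FTSJ2) belong with MRM3 (RNMTL1) to a trio of ribose methyltransferases that act on the rRNA of the large mitoribosomal subunit. MRM1 had 27.6, 29.99 and 31.6 CPM in sgCtrl and 15.8, 16.0 and 13.6 CPM in sgN6AMT1. The groups were far apart, and footprints fell by 48.8% in the edgeR fit. MRM1 was the lowest of the 42 genes, at a log2 fold change of -0.97 with SE 0.18 (adjusted p 8.96e-06 by edgeR). FTSJ2 had 41.2, 40.3 and 43.4 CPM in sgCtrl and 29.8, 29.0 and 30.4 CPM in sgN6AMT1, with each group within a narrow band. Its log2 fold change was -0.48 (SE 0.14, edgeR adjusted p 0.00454); DESeq2 did not call it (adjusted p 0.0837, the highest of 15 alternatives, which began at 0.000277).

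RNMTL1 did not pass the test. It had 36.2, 36.9 and 34.5 CPM in sgCtrl and 39.9, 35.4 and 38.5 CPM in sgN6AMT1, with overlap and a log2 fold change of 0.08 with SE 0.13 (adjusted p 0.73 by edgeR). The small-subunit rRNA methyltransferases TFB1M and METTL15 had log2 fold changes of 0.04 and 0.16, neither past the threshold.

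None of the 4 genes for formylation and amidation passed the test, where 26.9% of all tested genes did. Their median log2 fold change was 0.16. MTFMT, which formylates the initiator methionyl-tRNA, had a log2 fold change of 0.22 (SE 0.23) at a low level. QRSL1, GATB and GATC encode the subunits of the amidotransferase that makes glutaminyl-tRNA in mitochondria. QRSL1 had 49.2, 45.2 and 51.3 CPM in sgCtrl and 55.7, 60.9 and 58.6 CPM in sgN6AMT1, without overlap. Its log2 fold change was 0.28 with SE 0.12 (adjusted p 0.0727 by edgeR). GATC and GATB had log2 fold changes of 0.10 and -0.18, so the subunits differed in sign, and no difference among them was tested.

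Of the 10 genes of assembly and anchoring, 1 was lower (10.0%, against 13.9% of all tested genes), and the median log2 fold change was -0.07. MTERF3, a member of the mitochondrial transcription termination factor family linked to large-subunit biogenesis, had 37.2, 47.9 and 49.3 CPM in sgCtrl and 38.6, 39.8 and 25.0 CPM in sgN6AMT1. The groups overlapped, and the low mean of sgN6AMT1 rested largely on replicate 3. Its log2 fold change was -0.37 (SE 0.14, edgeR adjusted p 0.0374). Without sgN6AMT1 replicate 3 it was -0.21 (edgeR adjusted p 0.3), and the call was lost in 6 of 15 alternatives, including those without sgCtrl replicate 2 (edgeR adjusted p 0.185) and without sgCtrl replicate 3 (edgeR adjusted p 0.135). Adjusted p-values over the 15 ran from 0.00772 to 0.3.

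The GTPase genes of large-subunit assembly all had negative values, where 49.0% of all tested genes did, and none of them passed the test. MTG1 had 10.6, 8.62 and 6.90 CPM in sgCtrl and 6.58, 3.46 and 5.97 CPM in sgN6AMT1, with no overlap between groups that lay close together. Its log2 fold change was -0.71 (SE 0.32, edgeR adjusted p 0.0854), and it is uncertain, since 893 of its coding bases are shared on the same strand with the overlapping gene RP11-108K14.8, which had between 6 and 19 counts per library. GTPBP10 was at a log2 fold change of -0.21 with SE 0.11 (adjusted p 0.149 by edgeR) and MTG2 at -0.09. MTERF4, the partner of NSUN4, was at -0.25 (SE 0.20).

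The remaining assembly genes had log2 fold changes between -0.06 and 0.23. METTL17, needed for small-subunit assembly, had 64.3, 64.8 and 64.1 CPM in sgCtrl and 74.1, 67.4 and 68.9 CPM in sgN6AMT1, and MPV17L2, a large-subunit assembly factor, had 26.6, 25.9 and 25.6 CPM in sgCtrl and 33.8, 30.2 and 27.1 CPM in sgN6AMT1. Neither gene overlapped between groups and neither passed the test (log2 fold change 0.12 with edgeR adjusted p 0.442, and 0.23 with edgeR adjusted p 0.281). MALSU1, which keeps the subunits from joining early, was at 0.21 with wide spread in both groups (SD 13.4 and 12.7 CPM). The rRNA chaperone gene ERAL1 was at 0.00, a sign that turned with the scaling, and RMND1, which anchors the mitoribosome, was at -0.06.

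Of the 7 mt-translation factors, 2 were lower (28.6%, against 13.9% of all tested genes). The log2 fold change was negative in 6 of 7 (85.7%, against 49.0% of all tested genes). Both shares rest on 7 genes, and the signs of TUFM and GFM2 turned in some alternatives. GFM1, the factor that moves the ribosome along the mRNA in elongation, had 247, 255 and 250.0 CPM in sgCtrl and 206, 197 and 203 CPM in sgN6AMT1. Both groups were tight and well apart, so that a change of modest size, -0.31 in log2 units (SE 0.066, adjusted p 8.69e-05 by edgeR), ranked second by p-value in the list. MTIF2, the initiation factor that brings the initiator tRNA to the small subunit, had 78.4, 80.3 and 76.9 CPM in sgCtrl and 73.6, 60.5 and 58.6 CPM in sgN6AMT1. All sgN6AMT1 libraries were lower, with replicate 1 near the sgCtrl values. Its log2 fold change was -0.29 (SE 0.11, edgeR adjusted p 0.0404), and the call was lost in 10 of 15 alternatives, where adjusted p ran from 0.00831 to 0.201. These included the fits without sgCtrl replicate 1, 2 or 3 (edgeR adjusted p 0.0588, 0.118 and 0.0503) and without sgN6AMT1 replicate 2 or 3 (edgeR adjusted p 0.176 and 0.137).

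The second initiation factor gene, MTIF3, had 9.04, 14.1 and 10.9 CPM in sgCtrl and 14.9, 17.3 and 17.4 CPM in sgN6AMT1. Its groups did not overlap, in the opposite direction to MTIF2, at a low level and without passing the test (log2 fold change 0.50, SE 0.22, edgeR adjusted p 0.0896). TUFM, which delivers aminoacyl-tRNA to the ribosome, and TSFM, its nucleotide exchange factor, were at -0.01 (SE 0.054) and -0.09 (SE 0.098). The value of TUFM was the most precise of the list, and its sign turned with the scaling. GFM2 and MRRF, which take the ribosome apart after termination, were at -0.05 and -0.14.

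**Figure D3:**
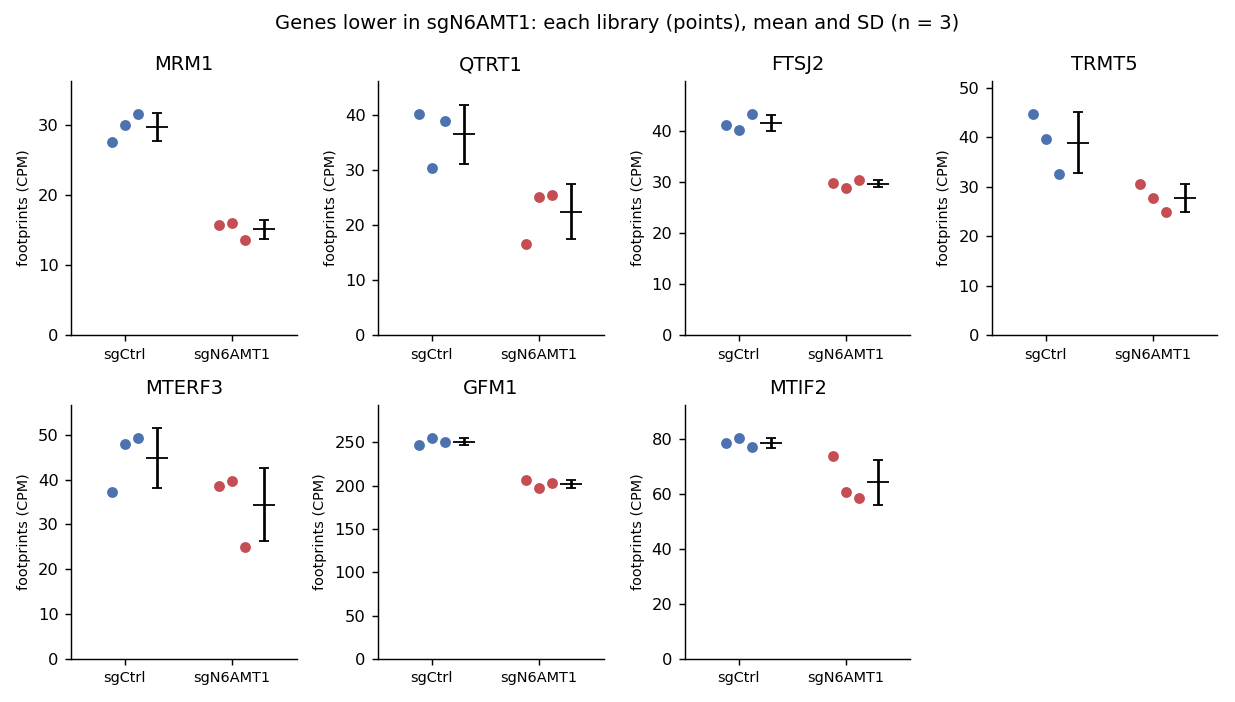
CPM in each library (points) with mean and SD (n = 3) for the 7 genes lower in sgN6AMT1, each on an axis from 0. The groups are separate in 6 panels and overlap for MTERF3, where sgN6AMT1 replicate 3 lies at 25.0 CPM.

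MRM1, QTRT1 and GFM1 passed the threshold in all 15 alternatives, and they were the 3 genes of the list that DESeq2 called. Their highest adjusted p-values over the alternatives were 0.00194, 0.0244 and 0.00382.

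Ratios of counts within a library need no scaling between libraries. They were computed for 10 pairs of partner or related genes, chosen after the values had been seen, and are given without a test. For the subunits of the queuosine enzyme, QTRT1 over QTRTD1 was 1.27, 1.22 and 1.58 in sgCtrl and 0.469, 0.892 and 0.758 in sgN6AMT1. The catalytic subunit thus had more footprints than its partner in every sgCtrl library and fewer in every sgN6AMT1 library. QTRTD1 itself had 31.7, 24.8 and 24.7 CPM in sgCtrl and 35.5, 28.1 and 33.7 CPM in sgN6AMT1, with overlap and an edgeR adjusted p of 0.196.

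MRM1 over RNMTL1 was 0.764, 0.813 and 0.914 in sgCtrl and 0.396, 0.451 and 0.352 in sgN6AMT1. FTSJ2 over RNMTL1 was 1.14, 1.09 and 1.26 in sgCtrl and 0.747, 0.817 and 0.789 in sgN6AMT1. Both ratios were separate between the groups, with RNMTL1 as the shared denominator. The ratio of GFM1 to GFM2 was 3.04, 3.35 and 3.67 in sgCtrl and 2.72, 2.96 and 2.69 in sgN6AMT1. The ratio of MTIF2 to MTIF3 was 8.67, 5.68 and 7.09 in sgCtrl and 4.94, 3.50 and 3.38 in sgN6AMT1. The 5 ratios given here did not overlap between the groups and were lower in sgN6AMT1, and each has a gene already called lower as its numerator. The other 5 of 10 overlapped: MTO1 over GTPBP3, TRIT1 over CDK5RAP1, GATB over QRSL1, GATC over QRSL1 and TUFM over TSFM. No share was computed over other gene pairs, so 5 of 10 has no background to be read against. Among all tested genes, taken singly, 19.2% did not overlap and were lower.

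**Figure D4:**
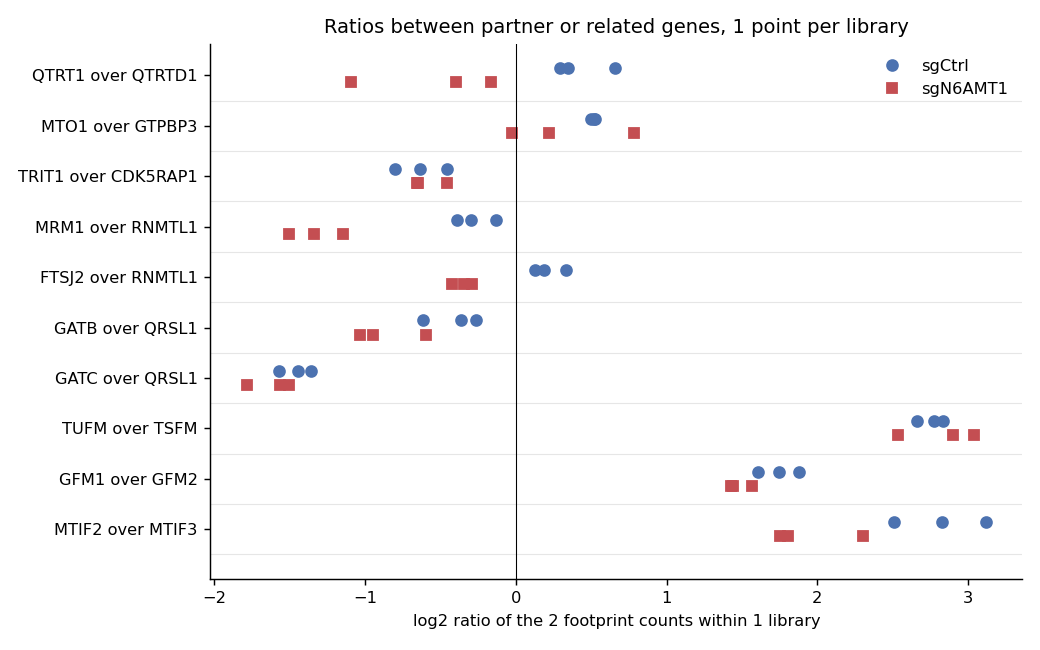
Log2 ratio of the footprint counts of paired genes within each library, sgCtrl as circles and sgN6AMT1 as squares. Groups are separate for 5 of 10 pairs, those with QTRT1, MRM1, FTSJ2, GFM1 or MTIF2 above the line, and QTRT1 over QTRTD1 crosses from above 0 to below 0. The pairs were chosen after the values had been seen, and no share over other pairs was computed.

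Genes outside the list that serve the same process were read from lists of known members. Over all tested genes 13.9% were lower and 12.9% higher. Of 82 mitoribosomal protein genes listed, 81 were tested, with 13 lower (16.0%) and 4 higher (4.94%). Their median log2 fold change was -0.05. MRPL53 rose (log2 fold change 0.77, SE 0.12, edgeR adjusted p 3.4e-07), while MRPL1 and MRPL39 fell by 0.71 and 0.38 on the log2 scale. Of 19 mitochondrial aminoacyl-tRNA synthetase genes, which charge the mt-tRNAs, 3 were lower (15.8%) and none was higher, with a median of -0.14. The lower genes included IARS2 at -0.37 and KARS at -0.19, for isoleucine and lysine. KARS also encodes the cytosolic enzyme, so its value is not specific to mitochondria.

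Of 12 further genes of mt-tRNA or mt-rRNA modification, 4 were lower (33.3%) and 1 was higher (8.33%), against 13.9% and 12.9% of all tested genes. DESeq2 called 3 lower and 0 higher, and limma-voom 4 and 1. The median log2 fold change was -0.18. THG1L, a tRNA guanylyltransferase family gene, was at -1.01 (SE 0.19, edgeR adjusted p 7.47e-06), TRMT10C, a subunit of mitochondrial RNase P and a tRNA methyltransferase, at -0.46, and the cytosine methyltransferase gene NSUN2 at -0.33. Of 12 further assembly genes, 1 was lower (8.33%), the RNA helicase gene DHX30 (log2 fold change -0.23), and none was higher. Of 8 genes for release, rescue, mRNA stability and membrane insertion, 2 were lower (25.0%) and none was higher. Shares in lists of 8 or 12 genes rest on few calls. LRPPRC, which stabilises mitochondrial mRNAs, was at -0.54 (SE 0.051, edgeR adjusted p 1.01e-15), and the insertase gene OXA1L at -0.19 (SE 0.075, edgeR adjusted p 0.0473). Of these 8 genes, 1 was lower in DESeq2 and in limma-voom, and 3 were with trends on coding length and GC removed.

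**Figure D5:**
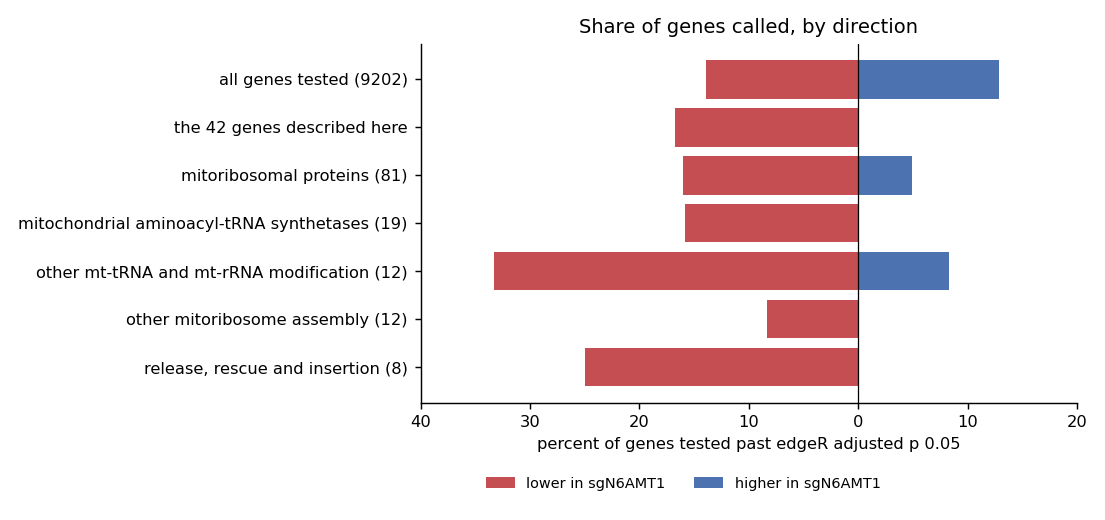
Percent of tested genes past an edgeR adjusted p of 0.05, lower to the left and higher to the right of 0, for all 9202 genes, the 42 genes described here and 5 related lists with the number tested in parentheses. The 42 genes lie at 16.7% lower and 0 higher, and all tested genes at 13.9% lower and 12.9% higher. All shares are those of the fit with TMM factors.

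Coding length and GC content were near those of all tested genes. The CDS of the 40 tested genes with one annotated had a median of 1258.5 bases and a GC content of 50.3%, against 1395 bases and 50.9% over all tested genes. They were spread over 19 chromosomes, with none on chromosome 21, where N6AMT1 lies. For TRNT1 and MTFMT the listed transcript is annotated as a target of nonsense-mediated decay, and YRDC and TRMT61B share coding bases on the opposite strand with C1orf122 (389 bases) and SPDYA (122 bases, 0 counts), so that the value of YRDC is uncertain as well.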

How the data were processed

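Ribo-Seq of 3 sgCtrl and 3 sgN6AMT1 libraries of K562 cells was analysed from 1 table of whole-number footprint counts per transcript, as deposited. The authors trimmed reads with cutadapt, kept footprint-sized reads, mapped them to GRCh38 (HISAT2), removed rRNA and tRNA reads and remapped the rest to canonical transcripts (Bowtie2). The study describes sums of ribosomal P-sites over the CDS and, for its differential analysis, overlaps with a gene annotation; which of them the table holds is not stated, and 74 of 150 matched transcripts without an annotated CDS had counts. No molecular identifiers are described, so the floors given for counts of 0 cover counting error only. RNA sequencing was not used here. Identifiers matched GENCODE release 44 for 17687 of 19330 genes and for 41 of the 43 genes described, all but RMND1 and TRMU.

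Genes were filtered with filterByExpr (minimum count 10), normalised with TMM factors and compared with edgeR 4.0.16 (quasi-likelihood F test, 2-sided) in R 4.3.3, with Benjamini-Hochberg adjustment over 9202 genes and a threshold of 0.05. CPM are TMM-scaled. DESeq2 1.42.0, limma-voom (limma 3.58.1) and other settings were alternatives. The scripts were tested on simulated data. Members and lists were chosen with earlier results of these data known. By rule, genes past the threshold or without overlap are given in every library, the others by role, N6AMT1, and at most 3 genes past the threshold of each further list. 1 gene that this rule names is not reported here. Within groups chi-square per degree of freedom was 1.25 to 1.68, and across groups 4.89 to 7.04. Deviations of samples with the same number correlated at -0.06, 0.02 and 0.02, so the numbers were not used to pair them.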

Additional observations from a re-analysis of the deposited data

How the results depend on the processing

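Over 15 alternatives, 21 of the 42 genes kept their direction and side of the threshold in every one that tested them. Of 623 values, 572 did so, 19 lost the call, 13 gained one and 19 turned sign, none of them for a called gene. Lower genes numbered 3 in DESeq2, which was run without the edgeR count filter and called 1324 of the 10780 genes it gave an adjusted p, where edgeR called 2473 of 9202. Higher genes numbered 2 with total counts and 2 at a mean of at least 50 counts. The median log2 fold change was -0.037 with total counts, which moved the median of all genes to 0.06; the gap between both medians was -0.10 with TMM factors and with total counts. Leaving out each library gave 5 to 7 lower genes, 0 to 2 higher genes and a median of -0.11 to -0.044, nearest 0 without sgN6AMT1 replicate 2 (-0.044) and without sgCtrl replicate 2 (-0.046). Sign turned for ERAL1 with upper-quartile factors (0.0099), total counts (0.052), the mean filter (0.022) and the replicate block (0.0011), for TUFM with total counts (0.040) and the mean filter (0.011), and for GATC (-0.027) and RNMTL1 (-0.022) with trends on coding length and GC removed. Without single libraries, values ran from -0.062 to 0.096 for ERAL1, -0.0625 to 0.059 for TUFM, -0.245 to 0.068 for NSUN3, -0.044 to 0.131 for TFB1M, -0.283 to 0.030 for TRMT61B, -0.146 to 0.022 for RMND1, -0.056 to 0.168 for GTPBP3 and -0.119 to 0.0075 for GFM2. The replicate block gave 7 lower and 0 higher genes with a median of -0.10, and 2390 calls over all genes. N6AMT1 had too few counts to be tested at a mean of at least 50. The cause of these shifts was not tested. Low counts limit the low-level genes most: the 95% intervals of OSGEPL1 and MTG1 spanned more than those of the other 40 tested genes of the list.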
